A study of Mus musculus with 4 samples.

Results

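The comparison set the knockdown of Bre1a directly against the knockdown of Bre1b in mouse cells. It used 4 of the 4 arrays of the series, taking for each gene the log2 ratio on a Bre1a array minus the log2 ratio on the Bre1b array that carried the same control. This gave 2 differences per gene, one within the control of no knockdown and one within the control of a mock knockdown against GFP. Genes were compared where a named probe had a value on all 4 arrays, which left 8676 genes after probes of one symbol were averaged. A positive difference means more RNA after Bre1a knockdown than after Bre1b knockdown, and a negative one the reverse.

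All arrays held total RNA of the RIF-1 line, which derives from a radiation-induced fibrosarcoma of the mouse. The Bre1a group had 2 arrays, 1 with untreated cells and 1 with GFP mock knockdown cells as the control, and the Bre1b group had 2 arrays with the same pair of controls. The depletions were made by RNA interference, and the labels give no interfering sequence, time after knockdown or irradiation. Per the labels the knockdown RNA carried Cy5 and the control RNA Cy3 on every array, with no dye swap. The labels name no log base; log2 was inferred from the values, and every fold given here rests on it.

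Bre1a is the gene now called Rnf20 and Bre1b the gene now called Rnf40. Their proteins are RING finger E3 ligases that bind each other and attach a single ubiquitin to histone H2B in the bodies of transcribed genes. The mark is placed together with the PAF1 elongation complex, is linked to methylation of histone H3 by the COMPASS and DOT1L enzymes, and takes part in the repair of DNA breaks. In human cells RNF20 has been described as a tumour suppressor and as a regulator of NF-kB dependent and growth factor dependent transcription. Because both proteins work in one complex, the direct comparison asks where loss of one partner leaves a different transcript level from loss of the other.

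A control drops out of the difference only if the control RNA was the same on both arrays, and a dye bias only if it was equal on them. The labels do not say whether one control extract served both arrays, nor whether the 2 arrays of a knockdown carried separate cultures or a single RNA, so the p-values cover array-to-array scatter, perhaps technical alone. The image links in the labels place both Bre1a arrays in one month's folder and both Bre1b arrays in another's, so image batch and knockdown cannot be told apart. Values per array numbered 19874 to 22255, array medians lay between -0.033 and 0.014, and SDs between 0.984 and 1.14, with the widest spread on the Bre1b array against mock. The files give ratios without brightness, so a gene's level in the cells could not be read and the number of arrays limits the precision.

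The 2 differences resembled each other gene by gene. They had 1 sign in 7085 of 8676 genes (81.7%), and in 3416 genes (39.4%) both were within 0.25 of 0 on the log2 scale. The median size of the mean difference was 0.24 and the median gap between the 2 differences 0.11, with Pearson's r of 0.683 and Spearman's rho of 0.775 across the 8676 genes. These coefficients are descriptions: genes are not independent replicates, and both differences may share knockdown RNA. At least 2-fold differences of 1 sign under both controls were found in 185 genes with more RNA after Bre1a knockdown (2.13%) and 134 with less (1.54%), against 16 genes with 2-fold differences of opposite sign.

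limma, with the control as a term and Benjamini-Hochberg adjustment over all genes, called 2161 of 8676 genes at an adjusted p under 0.05 (24.9%). Of these calls 1014 were higher (11.7%) and 1147 lower (13.2%) after Bre1a knockdown, and these shares are the background for every count below. Among the genes past 2-fold under both controls, 154 of the 185 higher and 118 of the 134 lower ones were called. The lowest adjusted p was 0.0372, so every call lay close to the threshold, and the fit has 1 residual degree of freedom. Without the control term limma called 0 genes, with 1286 at an unadjusted p under 0.05 and a lowest adjusted p of 0.159. With every array scaled to the same spread the calls fell to 13 higher and 36 lower, so 26.5% of calls were higher in place of 46.9%. An exact permutation test of 2 arrays against 2, with the control pairs ignored, cannot give a two-sided p below 0.3333.

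**Figure D1:**
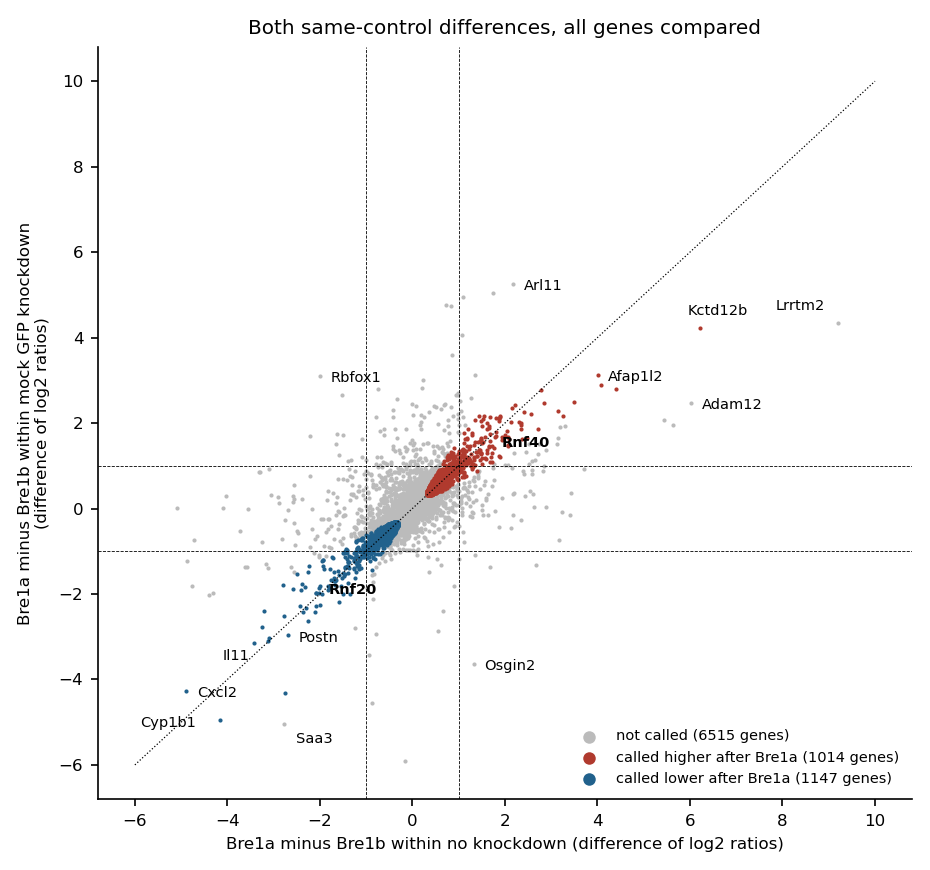
Each point is 1 of 8676 genes, with Bre1a minus Bre1b within no knockdown on the x axis and within mock GFP knockdown on the y axis, both as differences of log2 ratios; dashed lines mark 2-fold, the dotted line equality, and colours the limma calls. Called genes (1014 higher, 1147 lower) lie along the line of equality. The call itself favours this, since the gap between the 2 differences is the only residual of the fit. Lrrtm2, Adam12, Arl11 and Saa3 lie away from the line and were not called.

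The targeted genes moved with their labels. Rnf20 had log2 ratios of -1.60 and -1.35 on the Bre1a arrays (no knockdown, then mock as control, here and below) and 0.42 and 0.51 on the Bre1b arrays. It was below its control on both Bre1a arrays and above it on both Bre1b arrays. The mean difference was -1.94 ± 0.12 (SD of 2 differences; 95% interval of the limma fit -2.20 to -1.69), 3.84-fold less Rnf20 RNA after Bre1a knockdown, with a limma adjusted p of 0.0372. Rnf40 had 0.17 and 0.65 on the Bre1a arrays and -1.49 and -1.23 on the Bre1b arrays, the mirror image, with a mean difference of 1.77 ± 0.15 (1.47 to 2.07), 3.41-fold, and a limma adjusted p of 0.0372. On each knockdown's arrays the other ligase gene was above its control, at 0.42 and 0.51 for Rnf20 and 0.17 and 0.65 for Rnf40. A further Rnf40 spot, with values on the Bre1a arrays alone, read -1.92 and 0.56 there and was not used. Both calls were lost without the control term (adjusted p = 0.216 for each).

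**Figure D2:**
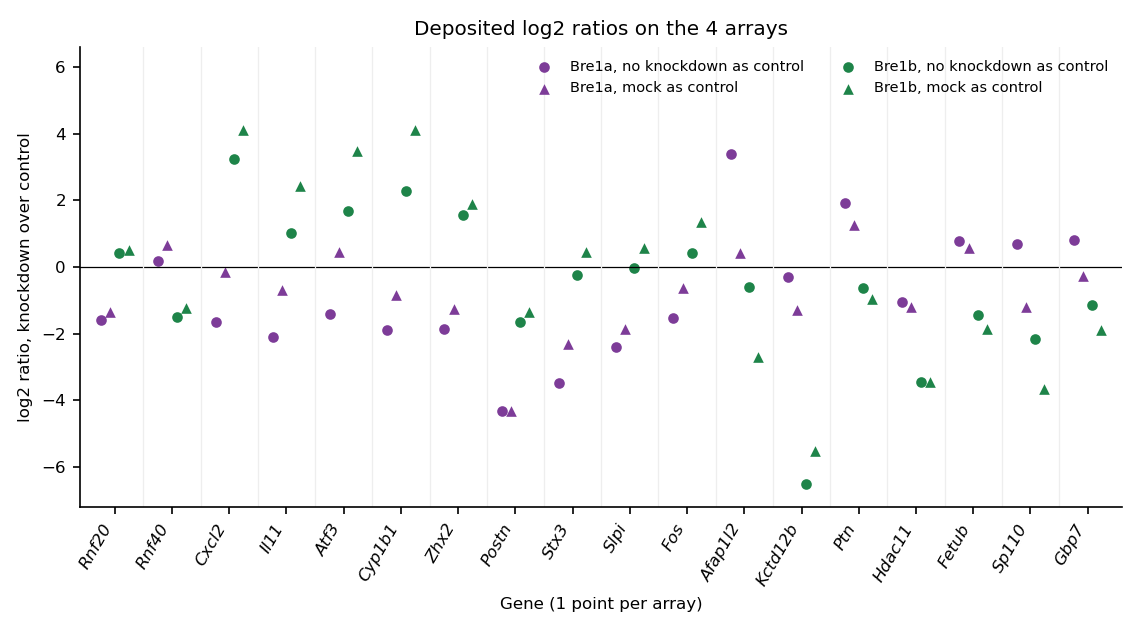
Deposited log2 ratios of knockdown over control on the 4 arrays for 18 named genes, 1 point per array, purple for Bre1a and green for Bre1b, circles for no knockdown and triangles for mock as the control. Rnf20 sits at -1.60 and -1.35 on the Bre1a arrays and Rnf40 at -1.49 and -1.23 on the Bre1b arrays. In every gene shown both Bre1a points lie on 1 side of both Bre1b points. The choice of genes favours this, since they are the targets or were ranked by their differences. The share of all genes with such a separation was not counted.

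The 15 genes lowest after Bre1a relative to Bre1b knockdown, ranked by the smaller of the 2 differences, held secreted proteins, enzymes and transcription factors, and 14 of the 15 were called. Cxcl2, a neutrophil-attracting chemokine, had log2 ratios of -1.65 and -0.14 after Bre1a and 3.23 and 4.12 after Bre1b knockdown. It lay below its control on both Bre1a arrays and far above it on both Bre1b arrays, a mean difference of -4.57 ± 0.44, 23.8-fold (limma adjusted p = 0.0372). Cyp1b1, a cytochrome P450 enzyme induced through the aryl hydrocarbon receptor, had -1.90 and -0.85 against 2.27 and 4.11, a difference of -4.56 ± 0.56. Il11, a cytokine of the interleukin-6 family, had -2.09 and -0.68 against 1.03 and 2.43, and its 2 differences, -3.12 and -3.11, were all but equal although the values against the controls were not. Atf3, a stress-induced transcription factor, behaved alike at -1.42 and 0.44 against 1.69 and 3.47, with differences of -3.11 and -3.03. Zhx2, a homeobox transcriptional repressor, went from -1.86 and -1.27 to 1.56 and 1.88, also on opposite sides of the controls.

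In other genes of this group the gap lay mainly on the Bre1a arrays. Stx3, a membrane fusion protein, had -3.48 and -2.33 after Bre1a but -0.24 and 0.46 after Bre1b knockdown. Slpi, a secreted protease inhibitor, had -2.39 and -1.86 against -0.03 and 0.57, and Casp4, an inflammatory caspase, -3.08 and -3.14 against 0.14 and -0.73. Postn, the matricellular protein periostin, was below its control on all 4 arrays, at -4.33 and -4.32 after Bre1a and -1.65 and -1.35 after Bre1b, so that its 7.09-fold gap separates a deep from a moderate reduction. Saa3, an acute phase protein, had -3.58 and -3.54 against -0.80 and 1.51 and was the 1 member of the 15 not called (adjusted p = 0.0565), with differences of -2.78 and -5.05. The remaining members, all called, were Ror1, a Wnt-binding receptor, Dlg2, a synaptic scaffold, Tcte3, a dynein light chain, Dpt and Tnfaip6, which bind matrix, with mean differences from -3.54 for Ror1 to -2.32 for Tcte3.

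Of the 15 genes highest after Bre1a relative to Bre1b knockdown, 12 were called. In several the gap came mainly from low ratios on the Bre1b arrays. Brightness is not given, so how faint these spots were could not be read. Kctd12b, of a family of potassium channel tetramerisation domain proteins, had -0.29 and -1.29 after Bre1a and -6.50 and -5.51 after Bre1b knockdown, a difference of 5.22 ± 1.41 (adjusted p = 0.0418). Hdac11, a histone deacetylase, had -1.04 and -1.21 against -3.44 and -3.46, and Dpyd, the first enzyme of pyrimidine breakdown, 0.70 and -0.78 against -2.80 and -3.28. Olfr1006, an olfactory receptor gene, lay below its control on all 4 arrays, and its differences of 2.79 and 2.77 were the closest pair among the highest 15. Lrrtm2 had the largest gap, 9.20 and 4.35, but its differences were so unequal that limma did not call it (adjusted p = 0.0737).

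Ptn, Fetub, Ypel1, Gp9 and Afap1l2 stood above the control on both Bre1a arrays and below it on both Bre1b arrays. Ptn, the growth factor pleiotrophin, had 1.93 and 1.25 against -0.64 and -0.97, a 5.25-fold difference of 2.39 ± 0.25 (limma adjusted p = 0.0372). Fetub, a secreted protease inhibitor, had 0.77 and 0.57 against -1.45 and -1.86, and Ypel1, a nuclear protein of the yippee-like family, 2.93 and 1.50 against -1.46 and -1.30. Gp9, a platelet glycoprotein, had 1.30 and 0.37 against -2.78 and -2.52. Afap1l2, an actin filament associated adaptor, had 3.40 and 0.42 against -0.61 and -2.72, and for each knockdown the value against mock lay below that against no knockdown. The next 4 genes lay on both sides of the control on the Bre1a arrays and below it on both Bre1b arrays. Sema6c, a semaphorin, had 1.56 and -0.27 against -1.57 and -2.54, and P2rx6, an ATP-gated channel subunit, 0.42 and -0.95 against -2.83 and -3.11, both called. Adam12, a metalloprotease, had 1.96 and -0.23 against -4.06 and -2.70, and Arl11, a small GTPase, -0.43 and 1.35 against -2.62 and -3.90, both not called at 4.25 ± 2.51 and 3.72 ± 2.17. Of the 30 genes in both groups 26 rested on 1 probe, against 67.5% of all genes.

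Genes of inflammatory signalling were lower after Bre1a than after Bre1b knockdown. Of 58 listed cytokines, chemokines and NF-kB targets 37 were measured, of which 18 fell and 3 rose, against backgrounds of 13.2% and 11.7%. The lists here and below were chosen with earlier results of these data known. A share above the background is therefore a description and not independent support. The median difference was -0.52, against 0.001 over all genes, and -0.64 and -0.53 within no knockdown and within mock. The called lower members ran from -4.57 for Cxcl2 to -0.42. The list medians on the single arrays were -0.68 and -0.44 after Bre1a and 0.07 and -0.04 after Bre1b knockdown, so the shift of the list lay on the Bre1a arrays.

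Within this list the chemokines Cxcl5 and Cxcl1, which like Cxcl2 bind the receptor CXCR2, fell. Ppbp, another CXCR2 ligand gene of the list, had differences of opposite sign, 0.36 and -0.53, and was not called. Cxcl5 had -1.72 and -2.30 after Bre1a against 0.36 and -0.31 after Bre1b knockdown, a difference of -2.03 ± 0.07. Cxcl1 had -0.09 and -0.28 against 1.66 and 1.38, that is, near its control after Bre1a and raised after Bre1b knockdown, a difference of -1.71 ± 0.07. Tnfaip3, the A20 enzyme that restrains NF-kB signalling, had -1.08 and -1.78 against 0.71 and 0.07. Ptgs2, the cyclooxygenase of inflammation, had -0.51 and 0.12 against 1.16 and 1.82. Ccl5, a T cell chemokine, had -0.74 and 1.46 against 1.07 and 3.37, where the values overlapped but the same-control differences of -1.82 and -1.91 did not part. The 3 members that rose were Cx3cl1, the membrane-bound chemokine fractalkine, at 1.46 ± 0.22, Cxcl12, a constitutive stromal chemokine, at 0.96 ± 0.11, and Mmp9, a gelatinase, at 0.53 ± 0.01. Cxcl1, Ppbp, Tnfaip3, Ptgs2 and Ccl5 were chosen here after their values were seen.

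The promoter windows of Cxcl2 and Cxcl1 are shown because both genes fell and both windows hold the NF-kB motif. The windows are the 250 bases before the annotated start in RefSeq GRCm38.p6, printed 5′ to 3′ on the gene's strand, with the motif in capitals (GGANTTTCC searched on both strands): chr5:90903649-90903898, plus strand, for Cxcl2 and chr5:90890995-90891244, plus strand, for Cxcl1.
Cxcl2: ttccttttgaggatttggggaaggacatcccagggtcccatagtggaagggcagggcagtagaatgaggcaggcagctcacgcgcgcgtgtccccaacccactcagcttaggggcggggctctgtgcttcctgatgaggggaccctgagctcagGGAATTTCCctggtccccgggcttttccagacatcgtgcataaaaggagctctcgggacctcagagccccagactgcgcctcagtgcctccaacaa
Cxcl1: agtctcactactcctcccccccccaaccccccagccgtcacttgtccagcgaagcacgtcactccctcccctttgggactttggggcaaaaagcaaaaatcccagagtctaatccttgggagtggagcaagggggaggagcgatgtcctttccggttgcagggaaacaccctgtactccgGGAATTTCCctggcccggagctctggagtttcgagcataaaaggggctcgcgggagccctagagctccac
The letters occurred in 8 of 33 windows of the list's measured genes (24.2%), against 1.07% of 32851 windows of all promoters and 1.12% of those of the genes tested. Among genes past 2-fold under both controls they occurred in 6 of 131 windows of lower genes (4.58%) and 0 of 191 of higher genes. Of the 134 lower genes 12 belong to the list, so this share is not separate from the list's. The AP-1 motif (TGANTCA) stood in 24.2% of the list's windows, 13% of lower and 8.9% of higher ones, against 4.72% of those of genes tested. TATAAA stood in 18.3% of lower and 6.81% of higher windows, against 6.85%. The list was made up of known NF-kB targets among others, so its share is a description, and a match is not evidence of binding.

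**Figure D3:**
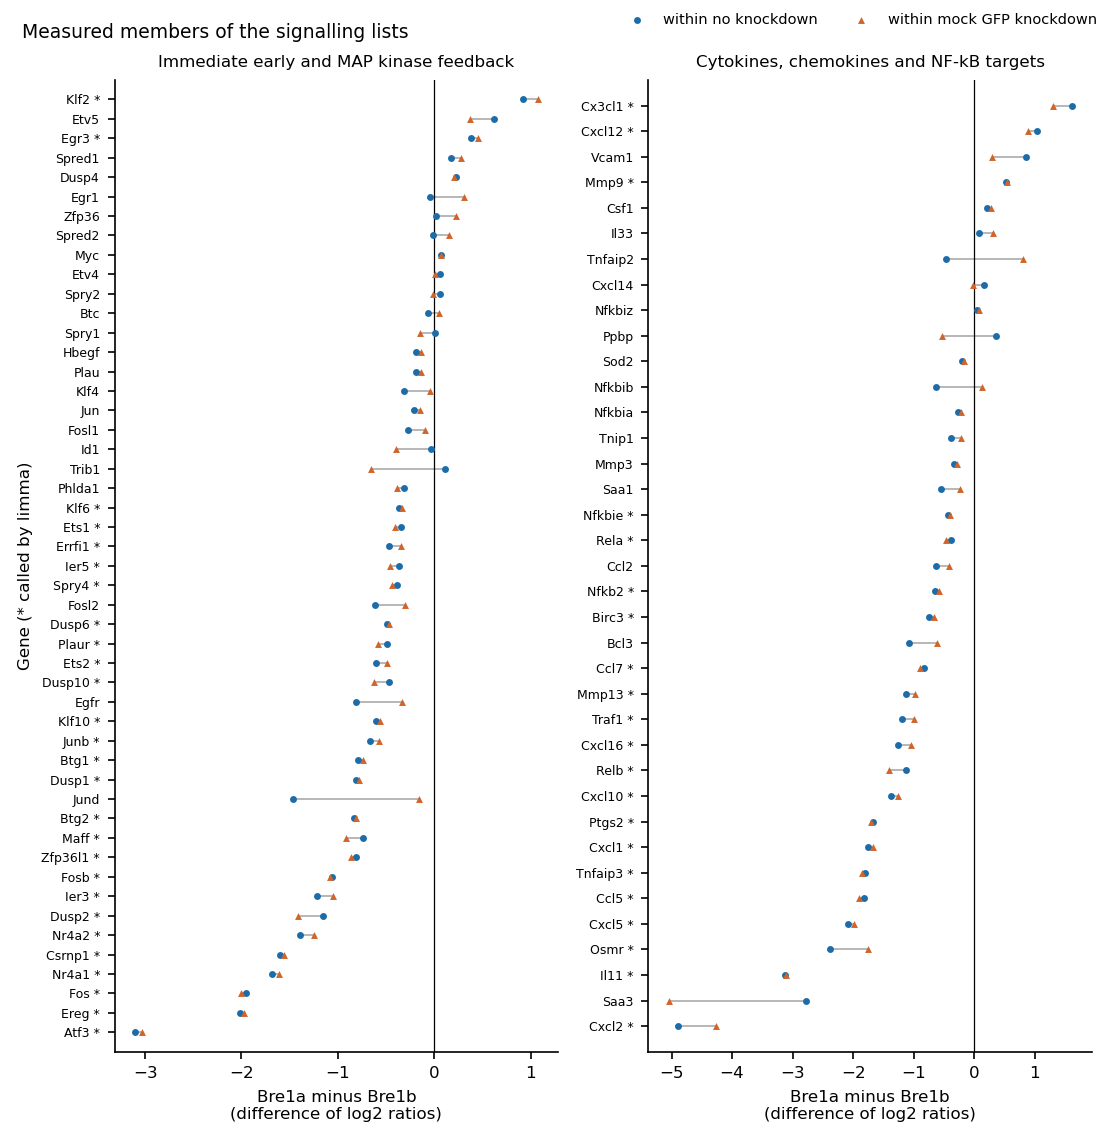
Bre1a minus Bre1b for each measured member of the immediate early list (49 genes, left) and the cytokine list (37 genes, right), as differences of log2 ratios, circles within no knockdown and triangles within mock, with asterisks on genes called by limma. Most members lie left of 0, with Atf3 and Cxcl2 lowest by the mean of the 2 differences and Saa3 within mock the lowest single point. The 2 differences of called genes are mostly close, which the call itself favours, since their gap is the only residual of the fit. In Cxcl2, also called, they were -4.89 and -4.26.

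Immediate early genes, which growth factors and stress switch on through MAP kinases without new protein synthesis, were also lower after Bre1a knockdown. Of 49 measured genes out of 56 listed, 25 fell and 2 rose. The median difference was -0.41, and -0.39 and -0.39 under the 2 controls. Its array medians were -0.21 and 0.10 after Bre1a and 0.32 and 0.50 after Bre1b knockdown. Unlike those of the cytokine list, they lay furthest from the controls on the Bre1b arrays.

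Ereg, the EGF receptor ligand epiregulin, had -0.87 and -0.06 after Bre1a against 1.15 and 1.91 after Bre1b knockdown, a difference of -2.00 ± 0.03, 3.99-fold (limma adjusted p = 0.0372). Fos, a subunit of the AP-1 transcription factor, had -1.55 and -0.65 against 0.41 and 1.36, a difference of -1.98 ± 0.03. Nr4a1, an orphan nuclear receptor, had -0.89 and 0.15 against 0.80 and 1.77, a difference of -1.65 ± 0.05. In all 3 genes the values against mock were above those against no knockdown for both knockdowns, while the same-control differences nearly coincided. Dusp1, a phosphatase that switches MAP kinases off, was above its control on all 4 arrays and lower after Bre1a, at 0.45 and 1.09 against 1.26 and 1.87. Btg2, an antiproliferative early gene that p53 also induces, had 0.38 and 1.37 against 1.21 and 2.19. The fall did not extend to every classical member. Jun had a difference of -0.18 ± 0.04, and Egr1 had differences of opposite sign, -0.04 and 0.31. Neither was called. Klf2, a zinc finger factor, and Egr3, an early growth response factor, were the 2 that rose, at 1.00 ± 0.11 and 0.41 ± 0.05. The 2 probes of Egr3 disagreed, with mean differences of -0.09 and 0.92. Dusp1, Jun and Egr1 were chosen after their values were seen.

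The windows of Dusp1 and Btg2 are shown because they hold the full cyclic AMP response element (TGACGTCA, which is its own reverse complement), in capitals: chr17:26508473-26508722, minus strand, and chr1:134079156-134079405, minus strand, RefSeq GRCm38.p6.
Dusp1: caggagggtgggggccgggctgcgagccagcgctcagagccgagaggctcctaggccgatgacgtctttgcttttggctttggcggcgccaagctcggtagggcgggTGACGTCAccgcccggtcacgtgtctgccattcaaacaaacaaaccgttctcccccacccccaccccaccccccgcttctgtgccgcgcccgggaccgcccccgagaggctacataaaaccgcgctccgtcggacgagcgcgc
Btg2: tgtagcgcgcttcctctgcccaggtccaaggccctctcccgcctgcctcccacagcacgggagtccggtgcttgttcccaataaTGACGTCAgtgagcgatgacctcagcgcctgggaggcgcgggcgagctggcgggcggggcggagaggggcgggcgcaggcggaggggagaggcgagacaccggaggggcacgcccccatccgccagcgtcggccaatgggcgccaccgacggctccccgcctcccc
The element occurred in 4 of 41 windows of the immediate early list (9.76%), against 1.55% of all promoters and 2.48% of the windows of genes tested. It occurred in 8 of 131 windows of genes at least 2-fold lower (6.11%) and 5 of 191 of genes at least 2-fold higher (2.62%). Its share was 7.14% in histone windows and 1.92% in those of G2 and mitosis. In the homologous recombination and Fanconi list, whose genes were mostly higher, it was 6.9% (2 of 29). Cytokine and interferon windows held 0. The NF-kB letters stood in 7.32% of immediate early windows, against 1.12% of the windows of genes tested. These shares are descriptions, and a match is not evidence of binding.

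Histone genes expressed in S phase and genes of mitosis went opposite ways. Of 47 measured replication-dependent histone genes out of 70 listed, 21 fell and 1, H2bc3, rose after Bre1a relative to Bre1b knockdown, with a median difference of -0.44. Histone array medians were -0.11 and 0.42 after Bre1a and 0.22 and 1.19 after Bre1b knockdown. H1f2, a linker histone, had -1.01 and -0.34 against 0.66 and 1.45, a difference of -1.73 ± 0.08, 3.32-fold (limma adjusted p = 0.0372). H2bc4, a gene for histone H2B, the substrate of the 2 ligases, had -0.03 and 0.44 against 1.00 and 1.50, and H4c9 had -0.42 and 0.47 against 0.57 and 1.53. Histone genes are near-identical copies whose probes may read each other's RNA, so the 21 are not 21 separate measurements. In 7 of the 47 every probe sat at a value that repeats on many spots of each array, and without such spots the list median was -0.64.

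Of 57 measured genes of G2 and mitosis out of 67 listed, 21 rose and 0 fell by the limma test. The differences were modest and even, with a median of 0.32, medians of 0.32 and 0.33 under the 2 controls, and called members between 0.39 and 0.96. Both differences were above 0 in 48 of the 57 genes, against 3413 of 8676 genes in all. Birc5, the survivin subunit of the chromosomal passenger complex, had 0.11 and 0.38 after Bre1a against -0.89 and -0.55 after Bre1b knockdown, a difference of 0.96 ± 0.05 over 3 probes. Cenpe, a kinetochore motor, had 0.21 and 0.54 against -0.72 and -0.26, Spc24, a kinetochore subunit, 0.29 and 0.49 against -0.46 and -0.21, and Foxm1, a transcription factor of mitotic genes, 0.36 and 0.43 against -0.37 and -0.22. In all 4 genes the Bre1a values were above and the Bre1b values below the controls. These 4 were picked as the list's largest by the smaller difference, which favours such a separation.

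H1f2 and Cenpe are shown together because the CCAAT box, bound by NF-Y, stands in both windows although the genes went opposite ways (capitals mark CCAAT or its reverse complement): chr13:23738557-23738806 and chr3:135212313-135212562, both plus strand, RefSeq GRCm38.p6.
H1f2: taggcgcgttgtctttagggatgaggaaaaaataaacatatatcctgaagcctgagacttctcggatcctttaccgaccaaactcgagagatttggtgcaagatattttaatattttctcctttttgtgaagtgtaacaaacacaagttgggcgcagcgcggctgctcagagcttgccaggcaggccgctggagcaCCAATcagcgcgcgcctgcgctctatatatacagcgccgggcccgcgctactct
Cenpe: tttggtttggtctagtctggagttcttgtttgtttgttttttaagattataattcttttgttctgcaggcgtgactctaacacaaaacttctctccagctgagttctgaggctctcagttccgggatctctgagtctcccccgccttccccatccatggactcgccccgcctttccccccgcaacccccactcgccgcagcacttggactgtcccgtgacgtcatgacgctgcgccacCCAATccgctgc
The box occurred in 78.6% of 42 histone windows and 73.1% of 52 windows of the G2 and mitosis list, against 33.8% of all promoters and 35.7% of the windows of genes tested. Both shares are descriptions, and a match is not evidence of binding. The Cenpe window also holds the letters of the cyclic AMP response element, left in lower case.

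Genes of homologous recombination and the Fanconi pathway, which repair double strand breaks and crosslinks, were mostly higher after Bre1a knockdown. Of 30 measured members 13 rose and 2 fell, with a median difference of 0.33. Dna2, a nuclease and helicase of end resection, had 1.49 and 1.75 against 0.20 and 0.02, the gap lying on the Bre1a arrays (difference 1.51 ± 0.31). Fancg, a core subunit of the Fanconi ligase, had -0.08 and -0.27 against -1.68 and -1.43, the gap lying on the Bre1b arrays (difference 1.38 ± 0.31). Fanca and Fanci rose by smaller amounts, 0.71 ± 0.06 and 0.70 ± 0.06. The 2 that fell were Rad52, a strand annealing protein, at -0.57, and Mre11a, a nuclease that senses breaks, at -0.39.

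Of 53 measured DNA replication genes 11 rose and 2 fell (median 0.19). Among them were Timeless, a fork protection protein, at 0.60 ± 0.01, and Lig1, the replicative ligase, at 0.57 ± 0.05, while the origin recognition subunits Orc4 and Orc2 were the 2 that fell. Of 22 damage checkpoint genes 3 rose, Cdc25c at 0.63, Chek2 at 0.45 and Topbp1 at 0.39, and 1, Hus1, fell. Of 35 p53 targets 13 fell and 1, Rrm2b, rose, with a median of -0.20. Dram1, an autophagy regulator, had -1.35 and -1.58 after Bre1a against -0.28 and -0.69 after Bre1b knockdown, and Aen, a nuclease of apoptosis, -0.08 and -0.04 against 0.72 and 0.70. Mdm2, the ligase that degrades p53, was above its control on all 4 arrays, at 0.61 and 0.89 against 1.15 and 1.44, and was lower by 1.46-fold after Bre1a.

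The interferon list did not move as a block. Of 44 measured members 14 rose and 5 fell, with a median difference of 0.26. Sp110 and Sp100, nuclear body proteins, and the guanylate binding GTPases Gbp7 and Gbp2 rose, while Pml, which builds nuclear bodies, was not called at 0.36. Sp110 had 0.69 and -1.20 against -2.16 and -3.67, a 6.33-fold difference of 2.66 ± 0.26 (limma adjusted p = 0.0372), and Sp100 -0.19 and -0.96 against -1.61 and -2.52. Gbp7 had 0.80 and -0.27 against -1.15 and -1.89, and Gbp2 a difference of 1.27 ± 0.0014. The 3 catalytic subunits of the immunoproteasome, which replace the constitutive subunits for antigen processing, were called higher, Psmb9 at 1.37 ± 0.27, Psmb8 at 0.89 ± 0.0049 and Psmb10 at 0.76 ± 0.02, as were the subunits of its activator, Psme1 at 0.74 ± 0.06 and Psme2 at 0.44 ± 0.10. Of 35 proteasome subunits in a separate list 0 rose and 3 fell. These immunoproteasome genes were chosen after their values were seen.

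Antiviral genes were called in both directions. Oasl2, of the oligoadenylate synthetase-like family, rose by 1.32 ± 0.12, the RNA sensor Ifih1 by 1.01 ± 0.01 and the related Dhx58 by 0.63 ± 0.07, with Parp9 at 0.62 and Bst2, which tethers virions, at 0.44. The 5 that fell were Ifit1, Ifit3, Irf9, Ubd and Eif2ak2, a kinase activated by double-stranded RNA, with Ifit3 at -0.66 and Eif2ak2 at -0.59. Pml, Oasl2, Ifih1, Dhx58, Parp9, Bst2 and Eif2ak2 were named after their values were seen. Ifit1, an antiviral RNA binding protein, had -1.22 and 1.04 against -0.06 and 2.22, values that overlapped between the knockdowns while the same-control differences of -1.16 and -1.18 did not part. Irf9, the DNA binding subunit of the interferon-stimulated factor, fell by 0.81 ± 0.27, with an adjusted p of 0.0499. Ubd, a ubiquitin-like protein that tumour necrosis factor also induces, had -2.83 and -3.21 against -0.24 and -1.33.

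The windows of Gbp7, which rose, and Ifit1, which fell, are shown because both hold the core of the interferon-stimulated response element (GAAANNGAA on either strand, in capitals): chr3:142530086-142530335 and chr19:34640639-34640888, both plus strand, RefSeq GRCm38.p6.
Gbp7: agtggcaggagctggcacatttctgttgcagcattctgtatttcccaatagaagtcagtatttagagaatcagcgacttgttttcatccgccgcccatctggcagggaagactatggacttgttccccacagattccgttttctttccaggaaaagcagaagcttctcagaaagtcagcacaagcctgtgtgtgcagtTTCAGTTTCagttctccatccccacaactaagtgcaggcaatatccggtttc
Ifit1: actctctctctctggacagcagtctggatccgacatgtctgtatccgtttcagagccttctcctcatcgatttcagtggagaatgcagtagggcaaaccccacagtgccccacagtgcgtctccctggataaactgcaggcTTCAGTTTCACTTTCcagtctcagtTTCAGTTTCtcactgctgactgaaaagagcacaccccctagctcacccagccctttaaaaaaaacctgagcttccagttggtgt
The letters occurred in 17 of 48 windows of the list (35.4%), against 7.13% of all promoters and 5.78% of the windows of genes tested. Among genes past 2-fold under both controls they occurred in 6.11% of windows of lower and 6.81% of higher genes. The list was made up of interferon genes, so its share is a description, and a match is not evidence of binding. Matches in Ifit1 numbered 3, of which some overlap, and in Gbp7 there was 1.

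**Figure D4:**
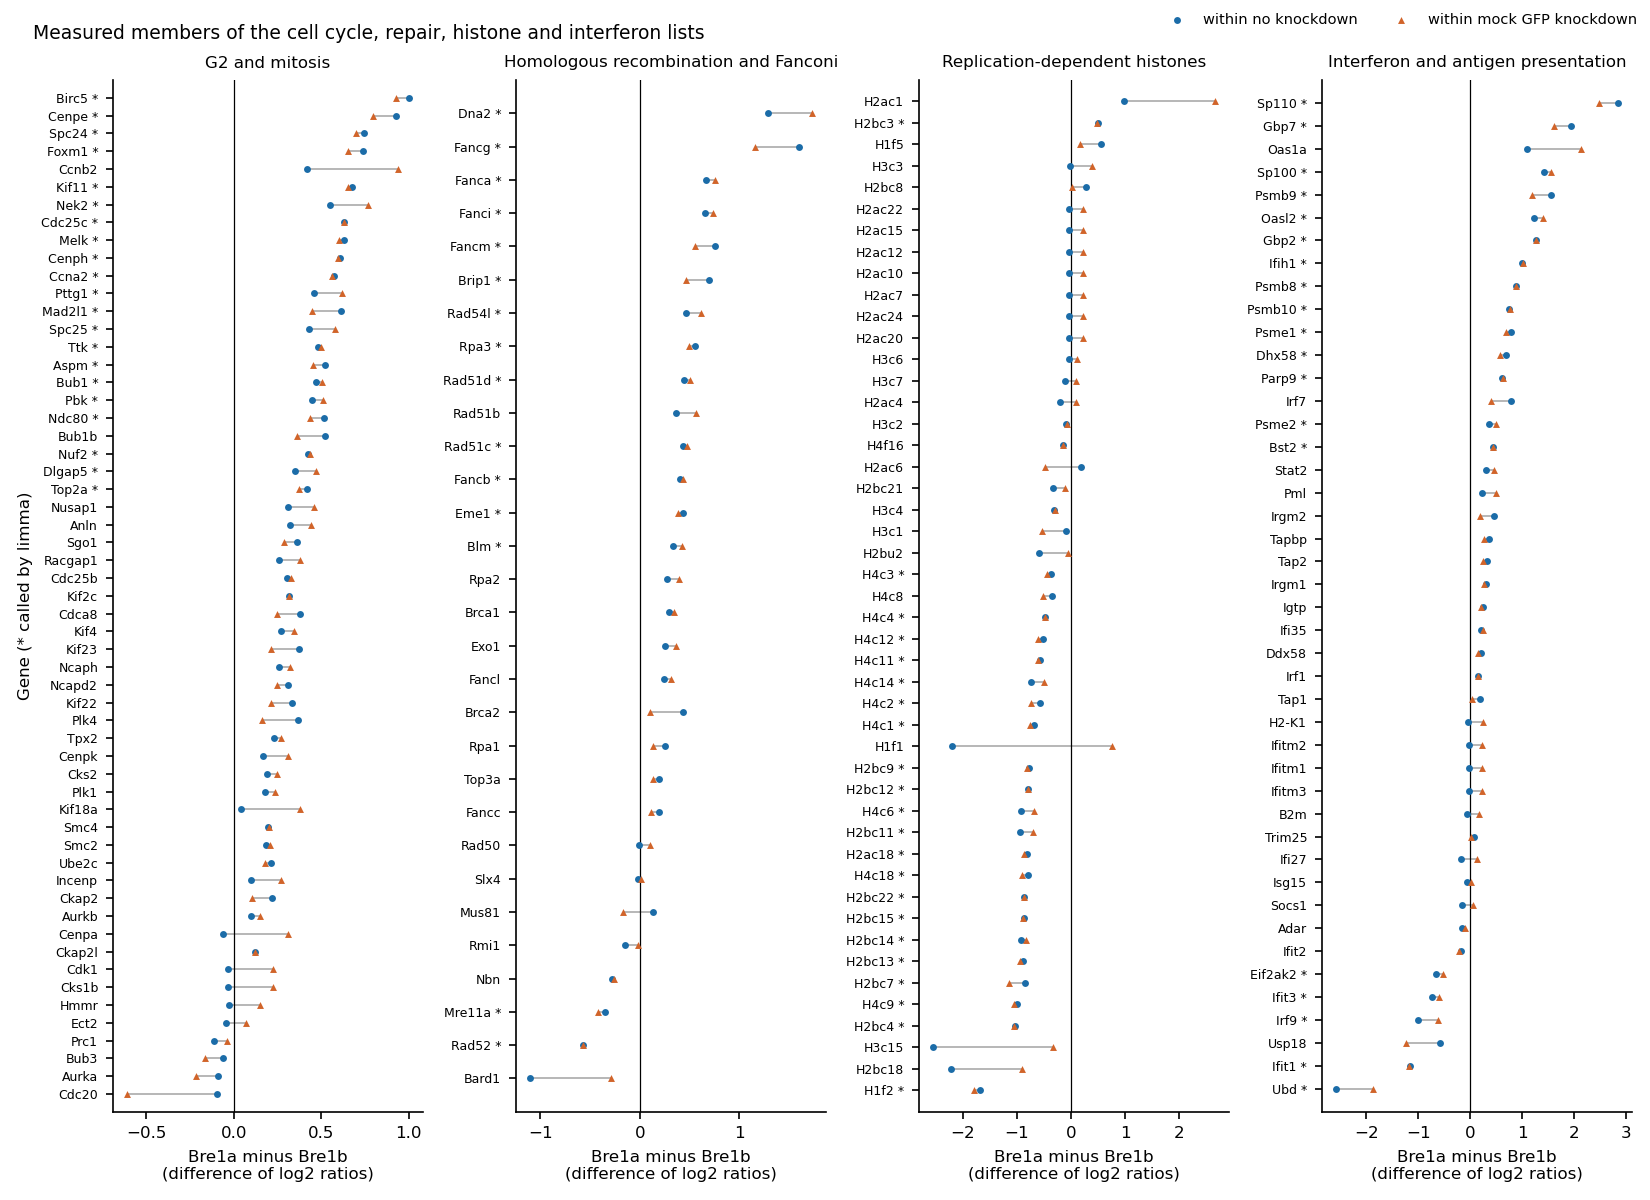
Bre1a minus Bre1b for each measured member of the G2 and mitosis (57 genes), homologous recombination and Fanconi (30), replication-dependent histone (47) and interferon and antigen presentation (44) lists, as differences of log2 ratios, circles within no knockdown and triangles within mock, asterisks on genes called by limma; each panel has its own x axis. The first 2 lists lie mostly right of 0 and the histones mostly left, and interferon genes stand on both sides, from Ubd at -2.23 to Sp110 at 2.66.

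Matrix and growth factor genes split by member. Of 56 measured extracellular matrix genes 15 fell and 10 rose (median 0.09). Tnc, the glycoprotein tenascin C, had -1.68 and -0.26 against 0.03 and 1.43, a difference of -1.70 ± 0.01, and Thbs1, thrombospondin, was above its control on all 4 arrays and lower after Bre1a by -1.24 ± 0.02. In the other direction were Ccn3, a matricellular protein, at 1.41 ± 0.04, and Fbln2, fibulin 2, at 1.20 ± 0.02. Of 28 TGF-beta and BMP genes 10 fell and 3 rose. The largest fall was in Grem1, a secreted BMP antagonist, at -0.18 and 0.04 after Bre1a against 1.93 and 2.45 after Bre1b knockdown, so near its control in the first case and raised in the second. Id4 and Bmp2 fell by 1.37 ± 0.02 and 1.24 ± 0.01, and Smad3, the signal transducer, rose by 0.70 ± 0.05.

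Metabolic and stress lists held called genes in both directions. Of 31 hypoxia and glycolysis genes 9 fell and 4 rose: Hk2, a hexokinase, had -0.68 and -0.74 against 0.36 and 0.26, and Vegfa, the angiogenic factor, -0.79 and -0.72 against 0.14 and 0.28. Of 41 genes of the integrated stress and unfolded protein responses 11 fell and 5 rose, with Ddit3, a stress factor that promotes cell death, at -0.88 ± 0.10 and Sel1l, of the degradation machinery of the endoplasmic reticulum, at 0.69 ± 0.04. Cholesterol genes were below the controls after both knockdowns, with list medians of -0.65 and -0.92 after Bre1a and -0.56 and -1.13 after Bre1b. Directly compared, 7 of the 23 were higher and 3 lower, with Insig1, which restrains sterol synthesis, at 1.07 ± 0.04 and Cyp51, a sterol demethylase, at -0.51 ± 0.0025. Of 21 fatty acid genes 5 rose and 3 fell, and of 39 redox and glutathione genes 12 rose and 4 fell. Sod1, the cytosolic superoxide dismutase, had 1.13 and 1.02 against 0.11 and 0.04, where the 0.11 is the value that repeats on many spots of that array, and Gsta4, a glutathione transferase, rose by 1.39 ± 0.13.

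**Figure D5:**
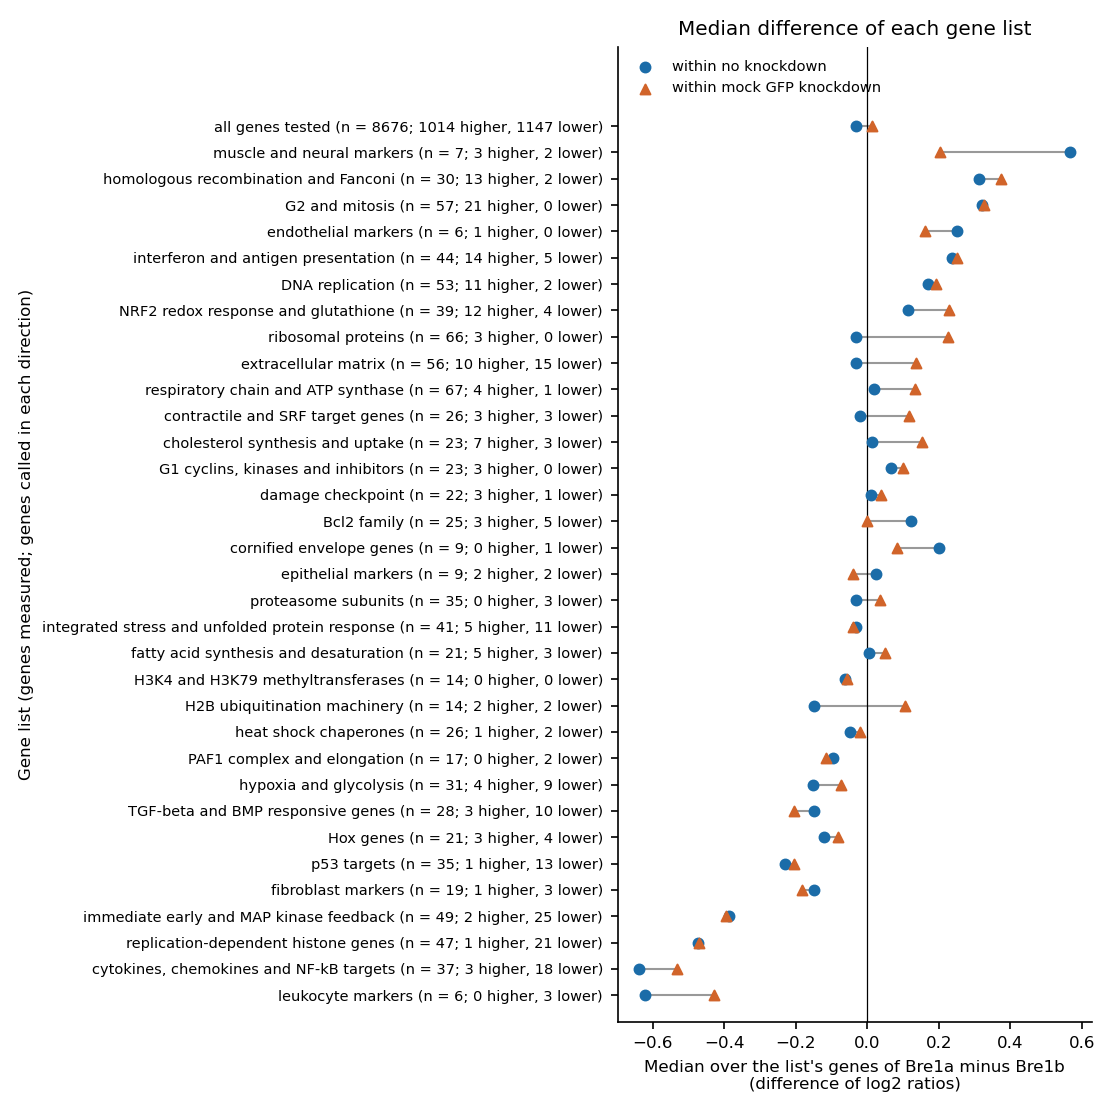
Median Bre1a minus Bre1b over the measured genes of each list, as differences of log2 ratios, circles within no knockdown and triangles within mock; labels give the genes measured and called. Cytokine, histone and immediate early lists lie lowest among lists of over 10 genes, and the recombination and mitosis lists highest, with all genes at -0.03 and 0.01.

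Genes of the machinery around the 2 ligases were called in shares near or below the background. Of 14 measured genes of H2B ubiquitination besides the targets, 2 rose and 2 fell: Usp46 and Usp12, deubiquitinases of H2B, at 1.32 ± 0.21 and 0.34 ± 0.01, and Mdm2 and Usp16, a deubiquitinase of histone H2A, at -0.55 ± 0.0092 and -0.46 ± 0.02. Of 17 genes of the PAF1 complex and elongation 0 rose and 2 fell, Cdc73, a PAF1 subunit, at -0.46 ± 0.12, and Hexim1, an inhibitor of the elongation kinase, at -0.35 ± 0.02. Both differences were below 0 in 14 of these 17 genes and above 0 in 1, against 3672 and 3413 of 8676 genes in all. The shift was small, with a list median of -0.10 against 0.001 over all genes. Of 14 genes for H3K4 and H3K79 methylation none was called in either direction by limma, with Men1, the menin subunit of a COMPASS complex, at 0.31 ± 0.05 (adjusted p = 0.055). A miss here does not show equal levels. Of 21 Hox genes 4 fell and 3 rose, with Hoxc13 at -1.08 ± 0.12 and Meis1, a Hox cofactor counted with them, at 0.66 ± 0.04.

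In the remaining lists the calls were as follows, against the backgrounds of 11.7% higher and 13.2% lower. Contractile genes numbered 3 higher and 3 lower of 26, Bcl2 family and cell death genes 3 and 5 of 25, G1 genes 3 and 0 of 23, heat shock chaperones 1 and 2 of 26, and cornified envelope genes 0 and 1 of 9. Ribosomal proteins had 3 higher and 0 lower of 66, but in 35 of them every probe sat at the repeated value, where the difference between arrays is -0.031 within no knockdown and 0.227 within mock whatever the RNA. Respiratory chain genes had 4 higher and 1 lower of 67.

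Ratios against a control cannot show whether a marker is expressed, so the label of the cells could not be checked by level. Of 23 fibroblast markers 19 had values, of which 3 fell, among them Cdh11, a mesenchymal cadherin, at -2.16 ± 0.37 and Prrx1, a mesenchymal homeobox factor, at -0.62 ± 0.0081, and 1, Col1a1, rose by 0.39 ± 0.0071. Of 31 leukocyte markers 6 had values and 3 fell together with the cytokine list: S100a8 at -1.90, Ncf4 at -2.30 and Trem2 at -0.88, with array medians of the 6 at -0.76 and -1.38 after Bre1a and -0.24 and -0.99 after Bre1b knockdown. The part of other cells in the cytokine result was not tested. Epithelial markers had 2 higher and 2 lower of 9 (Jup and Epcam, Krt18 and Pkp3), endothelial markers 1 higher of 6 (Flt1), and muscle and neural markers 3 higher and 2 lower of 7, with Nefl, a neurofilament, at 2.11 ± 0.35. In bulk RNA fewer cells of a type and less RNA per cell cannot be told apart.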

How the data were processed

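The authors deposited log2 ratios of Cy5 over Cy3 from 4 two-colour arrays, the scale being read from the values and the dyes taken per the labels. How images were scanned, background handled and ratios normalized is not given in the sources used here. Of 38784 probes 22204 had 1 gene symbol (gene table of GRCm38.p6, used for names), 12958 of these had 4 values, and they were averaged per symbol into 8676 genes. All columns of values were used, leaving 0 unmapped. Probes of 1 gene spanned a median of 0.178 in log2.

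limma 3.58.1 (R 4.3.3) was fitted two-sided with lmFit and eBayes, with 1 coefficient for each knockdown and the control as a term; the second number in the titles follows the control, so this is the replicate block, and the comparison is defined within a control. It has 1 residual and 1.57 prior degrees of freedom. Called means a Benjamini-Hochberg adjusted p under 0.05 over all genes; rose and fell are used of called genes. On simulated data for this comparison, over 8676 genes, 29 of 100 genes changed by 1 and 61 of 100 changed by 2 in log2 were called, and 3 of 8476 unchanged ones. The simulation changed few genes and drew noise independently for each array, so these rates need not hold for the data.

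The members and the 33 gene lists were chosen with earlier results of these data known. Genes named are the targets, the 15 highest and lowest by the smaller of 2 same-sign differences, up to 4 per list and sign by that rank, the 10 largest of opposite sign, and those said to be chosen later. Spots within 0.002 of the value that repeats on 702 to 843 spots of each array were kept. Promoters are RefSeq windows of GRCm38.p6. Alternatives: no control term, no repeated spots, 1 probe per gene, probe level, centring, scaling and leaving out arrays.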

Additional observations from a re-analysis of the deposited data

Results flagged for a closer look

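In 10 genes, the largest of their kind by the smaller difference, the 2 same-control differences pointed opposite ways. The 2 pairs of arrays thus gave opposite answers to which knockdown left more RNA. Control and array pair cannot be told apart here. The contrast between the controls was not tested, since each difference rests on 1 pair of arrays. That limma called none of the 10 follows from how they were picked: opposed differences partly cancel in the mean and widen its error. Over all genes 4136 had an unadjusted limma p under 0.05, a count that says nothing of the 10. Lower after Bre1a within no knockdown and higher within mock were Rbfox1, a splicing factor, at -2.00 and 3.11, Kctd12 at -2.22 and 1.69, Rasgef1b at -1.64 and 1.75, and Cnnm3 at -1.52 and 2.66. The same order held for Acat1, a mitochondrial thiolase, at -1.66 and 1.51, Gskip at -1.51 and 1.72, and Stk36 at -1.59 and 1.25. The reverse order held for Lpar2, a lysophosphatidic acid receptor, at 1.69 and -1.37, Osgin2 at 1.33 and -3.64, and Rnd1 at 2.68 and -1.31. In Rbfox1 a low ratio on 2 arrays made the pattern, -3.89 after Bre1a knockdown with untreated cells as the control and -3.88 after Bre1b knockdown with mock. All but Kctd12 rested on 1 probe.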

How the results depend on the processing

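The calls rest on pairing the arrays by control. In the fit with no replicate block, that is without the control term, limma called 0 genes higher and 0 lower, and Rnf20 and Rnf40 kept their differences of -1.94 and 1.77 without passing (adjusted p = 0.216 for each); all 122 named genes that were called lost the call with their direction unchanged. Pairing is by the control in the labels, and 2 pairs are too few to check it by correlation. At probe level 0 were called in either direction, with 7863 probes at an unadjusted p under 0.05 and a lowest adjusted p of 0.0583, while 469 and 267 probes were at least 2-fold higher and lower. Scaling the arrays to 1 spread left 13 higher and 36 lower calls, all 49 of them also called as reported; with a single probe per gene 702 and 748, of which 1360 of 1450 were called as reported. Leaving out 1 array, without the control term, gave 0 to 32 genes called higher and 0 to 38 lower, in fits where 1 knockdown has a lone array that is assumed to vary like the other's pair, so these counts say little of either array, and moved Rnf20 between -2.07 and -1.81 and Rnf40 between 1.53 and 2.01. Without 1 control at least 2-fold differences numbered 292 to 342 higher and 189 to 298 lower. The causes of these changes were not tested.

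The medians of the 6 lists in this paragraph kept their sign under each setting, as did 23 of the 33 lists in all; the other 10, among them extracellular matrix, H2B machinery, contractile, Bcl2 family, G1 and cholesterol genes, changed sign under at least 1. Centred and scaled they were 0.30 and 0.31 for G2 and mitosis, -0.43 and -0.40 for immediate early genes, -0.46 and -0.41 for histones, and 0.24 and 0.18 for interferon genes, and scaled -0.68 for cytokines. Interferon genes had 0.29 without repeated spots and 0.29 with a single probe, and histones -0.64 without repeated spots. With 1 control left out the medians ranged from 0.32 to 0.33 (G2 and mitosis), -0.64 to -0.53 (cytokines), 0.31 to 0.37 (recombination), -0.394 to -0.387 (immediate early), 0.24 to 0.25 (interferon) and -0.474 to -0.472 (histones). Scaling left 4 cytokine, 2 immediate early and 1 histone gene called lower, and 0 G2 and mitosis and 0 recombination genes called higher.

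Among the 139 named genes, in which Egr1 and Ppbp are not counted, the 10 with opposed differences and Ifit3 changed sign. When arrays were left out they ranged from -2.00 to 3.11 (Rbfox1), -2.54 to 2.01 (Kctd12), -1.64 to 1.75 (Rasgef1b), -1.52 to 2.66 (Cnnm3), -1.66 to 1.51 (Acat1), -1.51 to 1.72 (Gskip), -1.37 to 1.69 (Lpar2), -3.64 to 1.33 (Osgin2), -1.31 to 2.68 (Rnd1), -1.59 to 1.25 (Stk36) and -1.42 to 0.097 (Ifit3, unpaired). Scaled, Gskip was at -0.17 and Rasgef1b at -0.21.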

Other observations

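Named probes lacking a value on at least 1 array numbered 9246 and were not compared. Among them 401 had values on both Bre1a arrays and on neither Bre1b array, and 126 the reverse. Complete probes without a gene name numbered 5662, of which 205 (3.62%) were at least 2-fold higher and 72 (1.27%) at least 2-fold lower after Bre1a than after Bre1b knockdown under both controls. For the 12958 named complete probes the shares were 2.04% and 1.50%.

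Of the genes at least 2-fold apart under both controls, 254 rested on 1 probe. The other 65 had several probes, and in 64 of these all probes lay on 1 side of 0.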
